A study of Mus musculus with 12 samples.

Results

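Complement is a cascade of blood and tissue proteins that tags cells and debris for uptake by phagocytes, attracts immune cells and can lyse membranes. It starts with C1q, which binds antibodies or altered surfaces, or with lectins that bind sugars, or spontaneously on C3 in the alternative route. All routes meet at the cleavage of C3, whose fragments mark surfaces and signal through receptors such as C3ar1, and the last step assembles C5b to C9 into a pore. The liver makes most of the circulating proteins, and resident macrophages and stromal cells of a tissue make their own share. C1q comes mainly from macrophages.

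The complement components examined were 8 genes, chosen by symbol: the recognition subunits C1qa, C1qb and C1qc, the convertase component C4b, the central component C3, the pore component C7, the inhibitor of C1 Serping1, and the receptor C3ar1. All 8 are among the 24918 genes of the authors' table, and all 8 passed the filter on low values that left 14721 genes to test. The RNA came from whole hearts of untreated C57BL/6 mice at 2 months of age, in 4 groups of 3 libraries defined by the sample titles. The floxed groups, male and female, are homozygous GRloxP/loxP mice, in which loxP sites flank the gene of the glucocorticoid receptor (GR, Nr3c1). The cardioGRKO groups, male and female, carry the same floxed alleles and the transgene αMHCCre/+, whose promoter drives Cre recombinase in cardiomyocytes, so the other cells of the heart keep their receptor. All 12 libraries share the floxed alleles, and the Cre transgene is present in the cardioGRKO groups alone, so effects of Cre and of the deletion cannot be told apart. The genotype entry of the labels reads wild-type throughout, so the grouping rests on the titles.

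Every value is the authors' log2 value after DESeq2 normalization, and it is not scaled by gene length, so levels are compared between groups and not between genes. Low values in this table are drawn together, so folds of weakly expressed genes may be understated. Sequencing depth is not known from it, and the precision is the spread between libraries, for which nothing in the labels says that they are separate animals. The p-values therefore measure only that spread. Nr3c1 was at a mean of 11.41 ± 0.015 in male floxed and 10.85 ± 0.027 in male cardioGRKO libraries (SD, n = 3 each), and at 10.74 ± 0.034 and 10.88 ± 0.029 in those labelled female floxed and female cardioGRKO. It changed by -0.56 (95% interval -0.61 to -0.51) between the male groups and by 0.14 (0.09 to 0.19), the opposite direction, between the groups labelled female. Both groups labelled female thus lay near male cardioGRKO, and the comparison of the floxed groups by sex sets libraries that differ in Nr3c1 by -0.67 (limma, adjusted p = 1.4e-12) against each other. Sex and Nr3c1 level cannot be told apart there. Between the cardioGRKO groups Nr3c1 differed by 0.03 (-0.02 to 0.08). Female genotype is accordingly given as labelled throughout. In the libraries labelled female floxed 1 and 2, Krt12, a corneal keratin, stood at 13.13 and 13.98, against 7.16 to 8.49 in the other 10 libraries. Counts are also given without these 2. This leaves 1 library labelled female floxed, so a call can be lost there without a smaller difference. Cardiomyocyte genes were abundant in every group, with Myh6 at a mean of 19.41, and 0 of the 10 cardiomyocyte markers fell under the filter.

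The promoters of C3 and C7, the members with the largest differences between groups, and of C1qb and C1qc, which lie next to each other on chromosome 4, are shown first. The RefSeq table held promoters for 5 of the 8 members. Each runs from 250 bases before the annotated start to 50 bases after it, 5′ to 3′ on the gene's own strand. All 4 lie on the minus strand of GRCm38.p6, at chr17:57228087-57228386 (C3), chr15:5063724-5064023 (C7), chr4:136886151-136886450 (C1qb) and chr4:136892865-136893164 (C1qc), whereas the reads were aligned to mm9. Capitals mark matches to a motif on either strand.
C3: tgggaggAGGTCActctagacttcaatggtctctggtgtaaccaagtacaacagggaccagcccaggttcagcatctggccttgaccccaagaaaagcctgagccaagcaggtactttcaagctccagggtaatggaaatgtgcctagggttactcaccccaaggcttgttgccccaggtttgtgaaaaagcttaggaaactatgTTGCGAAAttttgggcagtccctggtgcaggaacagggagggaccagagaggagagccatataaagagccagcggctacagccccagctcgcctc
C7: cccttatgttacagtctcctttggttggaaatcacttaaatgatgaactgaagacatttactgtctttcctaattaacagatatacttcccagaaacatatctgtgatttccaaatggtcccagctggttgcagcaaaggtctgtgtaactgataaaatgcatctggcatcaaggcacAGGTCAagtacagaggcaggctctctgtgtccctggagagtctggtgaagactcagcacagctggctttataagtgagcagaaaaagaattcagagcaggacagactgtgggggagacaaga
C1qb: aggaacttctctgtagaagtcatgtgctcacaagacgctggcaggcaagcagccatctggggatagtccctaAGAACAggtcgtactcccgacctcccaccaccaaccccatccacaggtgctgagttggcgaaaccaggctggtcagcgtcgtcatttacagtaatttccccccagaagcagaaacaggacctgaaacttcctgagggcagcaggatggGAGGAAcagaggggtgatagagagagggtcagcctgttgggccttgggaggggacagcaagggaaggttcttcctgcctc
C1qc: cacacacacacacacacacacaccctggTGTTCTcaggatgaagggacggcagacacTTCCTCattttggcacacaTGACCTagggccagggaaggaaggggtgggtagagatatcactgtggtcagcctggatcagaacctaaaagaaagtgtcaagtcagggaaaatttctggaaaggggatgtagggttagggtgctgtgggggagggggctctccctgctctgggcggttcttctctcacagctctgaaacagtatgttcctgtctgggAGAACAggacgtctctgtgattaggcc

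Of 6 motifs searched, the half-site AGGTCA, shared by the estrogen receptor and other nuclear receptors, occurred once each in the C3, C7 and C1qc windows and in 16.3% of all 32851 promoters of the table. The C/EBP motif TTGCNNAA, bound by factors of the acute phase response, occurred in the C3 window as TTGCGAAA, with its first base 45 bases before the start, and in 10.8% of all promoters. The half-site AGAACA of the glucocorticoid receptor was present in the windows of C1qb (1 match) and C1qc (2 matches) and in 19% of all promoters. The ETS core GAGGAA, part of the site of the myeloid factor PU.1, was present in the same 2 windows and in 28.3% of all promoters. Motifs of NF-kB and of the interferon-stimulated response element, in 1.5% and 3.4% of all promoters, matched in 0 of the 5 members' windows. The matches do not overlap each other. They describe letters in these windows, not bound sites.

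C3, the component on which all complement routes converge, was higher in the libraries titled cardioGRKO than in those titled floxed, in males and in the groups labelled female. In male floxed libraries its values were 11.46, 11.43 and 11.43, and in male cardioGRKO libraries 11.79, 11.70 and 11.74. This is a rise of 0.30 (SE 0.027), or 1.24-fold, with all 3 cardioGRKO libraries above all 3 floxed ones (limma, adjusted p = 1.9e-07). Libraries labelled female floxed had 10.79, 10.79 and 10.87, and those labelled female cardioGRKO 11.13, 11.18 and 11.17. The rise there was 0.35 (SE 0.027), or 1.27-fold, again without overlap (limma, adjusted p = 7.0e-08). The male minus the female rise was -0.04, with a 95% interval of -0.12 to 0.04 (adjusted p = 0.42), so the sizes were not told apart. Among all 14721 genes C3 had rank 196 from the top in males and rank 45 in the groups labelled female. In both comparisons the rise kept its call in all 22 alternative settings, at 0.28 to 0.33 in males and 0.30 to 0.37 in the groups labelled female. Settings that left out a library outside the comparison could not change the difference, only its p.

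C3 was also lower in females than in males within each labelled genotype. The difference was -0.62 (95% interval -0.68 to -0.57) between the floxed groups and -0.58 (-0.64 to -0.52) between the cardioGRKO groups, which leaves 64.9% and 66.9% of the male level (limma, adjusted p = 1.3e-11 and 1.0e-10). The 4 groups were ordered from female floxed through female cardioGRKO and male floxed to male cardioGRKO, and no neighbouring groups in this order overlapped. Each neighbouring step is one of the called differences above, except that between female cardioGRKO and male floxed, which was not tested.

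**Figure D1:**
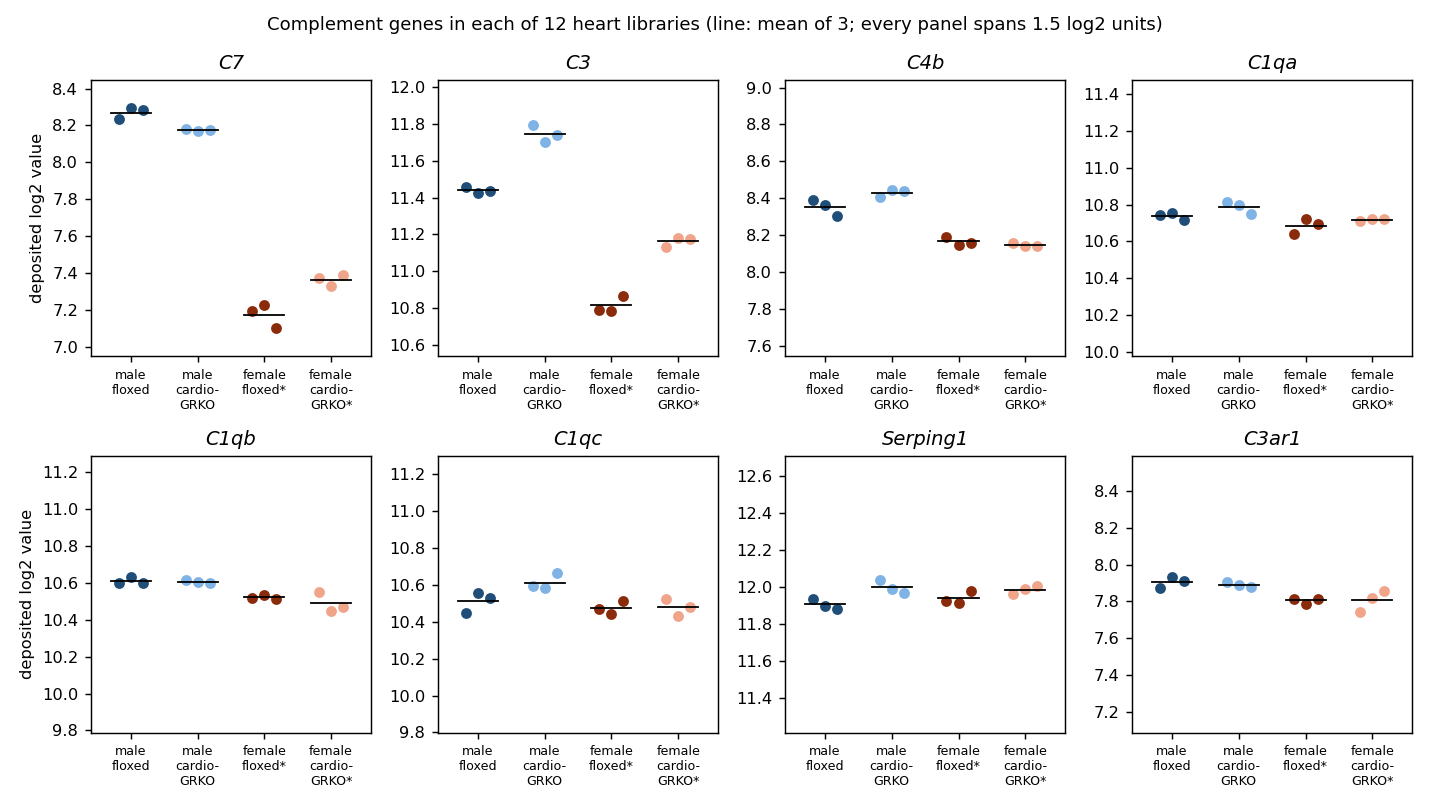
Deposited log2 values (vertical axes, each spanning 1.5 units) of the 8 complement genes in the 12 libraries, with points for replicates 1 to 3 from left to right, lines for the mean of each group and asterisks for groups whose genotype is given as labelled. C3 steps up from floxed to cardioGRKO in both sexes, C7 falls from 8.27 in male floxed to 7.17 in female floxed libraries, and the C1q genes, Serping1 and C3ar1 stay within narrow ranges.

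C7, which joins the growing pore after C5b and C6, differed most between male and female libraries. Its values were 8.23, 8.29 and 8.28 in male floxed and 8.18, 8.17 and 8.17 in male cardioGRKO libraries. They were 7.19, 7.23 and 7.10 in libraries labelled female floxed and 7.37, 7.33 and 7.39 in those labelled female cardioGRKO. All 6 female libraries thus lay below all 6 male ones, by at least the gap from 7.39 to 8.17. Hearts labelled female floxed had 46.8% of the male floxed level (log2 difference -1.10, SE 0.032, adjusted p = 8.8e-14), and hearts labelled female cardioGRKO 57.0% of the male cardioGRKO level (-0.81, SE 0.032, adjusted p = 1.2e-11, limma). Only 10 and 22 of the 14721 genes tested had a more negative difference in these 2 comparisons.

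The genotype differences of C7 were smaller and of opposite sign in the sexes. In males C7 fell by 0.10 (adjusted p = 0.034), a call that was lost when male floxed 2 or 3 or male cardioGRKO 1, 2 or 3 was left out (adjusted p = 0.068 to 0.112). Between the groups labelled female it rose by 0.19 (95% interval 0.12 to 0.26, 1.14-fold, limma, adjusted p = 0.00028), with no overlap. The difference between the sexes was -0.29 (SE 0.045) and passed the test (limma, adjusted p = 0.00011). It lay between -0.36 and -0.25 in all 21 alternatives that gave a value. Of the called markers of endothelial cells and of cardiomyocytes, most moved in the direction of C7 in the genotype comparisons. Of 10 endothelial markers, 0 rose and 10 fell in males and 5 rose and 1 fell in the groups labelled female. Of 10 cardiomyocyte markers, 0 rose and 7 fell in males and 4 rose and 1 fell in the groups labelled female. Median differences in males and in the groups labelled female were -0.17 and 0.06 for endothelial and -0.16 and 0.005 for cardiomyocyte markers. Of all genes 12.8% rose and 14.6% fell in males, and 15.2% rose and 14% fell in the groups labelled female. Among 7 adipocyte markers, 2 rose and 3 fell in males and 6 rose and 0 fell in the groups labelled female. For the 9 smooth muscle and pericyte markers the counts were 1 and 6 in males, and 3 and 4 in the groups labelled female. Between the floxed groups 6 endothelial, 7 cardiomyocyte and 6 of 7 adipocyte markers were lower in females, and 1, 1 and 0 higher. Between the cardioGRKO groups, where C7 was also lower, 6 endothelial, 5 cardiomyocyte and 5 adipocyte markers were higher and 0, 4 and 1 lower. Their part in the C7 differences was not tested.

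C4b, the component of the classical and lectin convertase that binds covalently to surfaces, followed C3 and C7 in sex and not in the female genotype comparison. The values were 8.39, 8.37 and 8.31 in male floxed and 8.41, 8.45 and 8.44 in male cardioGRKO libraries. They were 8.19, 8.15 and 8.16 in libraries labelled female floxed and 8.16, 8.14 and 8.14 in those labelled female cardioGRKO. Female libraries lay below male ones in both genotypes, by -0.19 (SE 0.028, adjusted p = 3.4e-05) and -0.28 (SE 0.028, adjusted p = 1.1e-06, limma). The male genotype difference was 0.08 (95% interval 0.02 to 0.13) and missed the threshold (limma, adjusted p = 0.054), although its libraries did not overlap. It was called in 3 of 22 alternatives, moderation without the trend, library weights and without male floxed 1 (adjusted p = 0.027 to 0.050). The difference between the groups labelled female was -0.02 (-0.08 to 0.04, adjusted p = 0.66). Mouse C4a is a near-identical copy of C4b, so reads may have been divided between them. It was listed at means of 4.72 to 4.76 in the 4 groups and was not called in any comparison.

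C1qa, C1qb and C1qc encode the chains of C1q, 1 of each in every triple helix. Their neighbouring genes stayed within 0.17, 0.18 and 0.23 log2 units over all 12 libraries. C1qa ranged from 10.64 to 10.81, C1qb from 10.45 to 10.63 and C1qc from 10.43 to 10.66. Within a library the difference between C1qa and C1qb varied by 0.16 over the series, against ranges of 0.17 and 0.18 for the genes themselves. In males C1qc rose by 0.10 (SE 0.033, adjusted p = 0.028), whereas C1qa (0.05, adjusted p = 0.16) and C1qb (-0.003, adjusted p = 0.95) missed the threshold. Quantile normalization alone brought C1qa past it (0.08, adjusted p = 0.030). The C1qc call was lost without male floxed 1 (0.07, adjusted p = 0.15) or male cardioGRKO 3 (0.08, adjusted p = 0.14). Between the groups labelled female, the 95% intervals of all 3 chains included 0 and lay between -0.09 and 0.08. C1qb was called there when female cardioGRKO 1 was left out (-0.065, limma, adjusted p = 0.048).

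By sex, the chains were slightly lower in females. Between the cardioGRKO groups C1qa, C1qb and C1qc were lower by -0.07, -0.12 and -0.13 (limma, adjusted p = 0.045, 0.0027 and 0.0065). The C1qa call there was lost in 9 of 22 alternatives. These included leaving out male cardioGRKO 1 or 2, or any female cardioGRKO library (limma, adjusted p = 0.091 to 0.16). Between the floxed groups C1qb was lower by -0.09 (adjusted p = 0.010), and C1qa and C1qc, at -0.05 and -0.04, were not called. The C1qb call was lost after quantile normalization (-0.06, adjusted p = 0.0502). It was also lost without the 2 libraries rich in Krt12, which leaves 1 library labelled female floxed, although the difference there was -0.096. C1qa was called after median centring, with library weights and without female floxed 2 (adjusted p = 0.030 to 0.042). Markers of macrophages were examined beside them. The 14 macrophage markers found, all above the filter, had a summed level of 13.44 to 13.47 in male floxed and 13.46 to 13.53 in male cardioGRKO libraries on the log2 scale. It was 13.28 to 13.34 in female floxed and 13.44 to 13.49 in female cardioGRKO libraries, as labelled. So the summed level was lowest in female floxed libraries, and 7 of the 14 markers were called lower and 2 higher there than in male floxed ones, against 3 lower and 1 higher between the cardioGRKO groups. In the genotype comparisons 1 macrophage marker rose and 2 fell in males, where C1qc rose. In the groups labelled female 6 rose and 3 fell, where no C1q chain was called. The part of macrophage markers in the C1q differences was not tested. In RNA of a whole heart, fewer cells of a type and less RNA per cell cannot be told apart.

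C3ar1, the receptor for the C3a fragment, had values of 7.88, 7.93 and 7.91 in male floxed and 7.90, 7.89 and 7.88 in male cardioGRKO libraries. It had 7.81, 7.79 and 7.82 in female floxed and 7.75, 7.82 and 7.86 in female cardioGRKO libraries, as labelled. The genotype differences were -0.01 (95% interval -0.08 to 0.05) and 0.001 (-0.06 to 0.06), and neither passed the test (limma, adjusted p = 0.79 and 0.98). Female libraries were lower by -0.10 between the floxed groups (adjusted p = 0.012), a call lost without male floxed 2 (-0.09, adjusted p = 0.053). It was also lost, at -0.09, without the 2 libraries rich in Krt12, which leaves 1 library labelled female floxed. Between the cardioGRKO groups the difference was -0.08 (adjusted p = 0.049), a call lost in 13 of 22 alternatives.

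Serping1, the C1 inhibitor that blocks C1r, C1s and the lectin proteases, was 11.94, 11.90 and 11.88 in male floxed and 12.04, 11.99 and 11.97 in male cardioGRKO libraries. It rose by 0.09 (SE 0.024), or 1.07-fold, in males (limma, adjusted p = 0.0072), and the groups did not overlap. Libraries labelled female floxed had 11.93, 11.91 and 11.98 and those labelled female cardioGRKO 11.96, 11.99 and 12.01. These overlapped, with a difference of 0.05 (95% interval -0.003 to 0.10, adjusted p = 0.15). Unlike the other 7 members, Serping1 was not called between the sexes in either genotype, at 0.03 (95% interval -0.02 to 0.08) and -0.01 (-0.06 to 0.04). Quantile normalization alone gave a called sex difference, of 0.08 between the floxed groups.

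**Figure D2:**
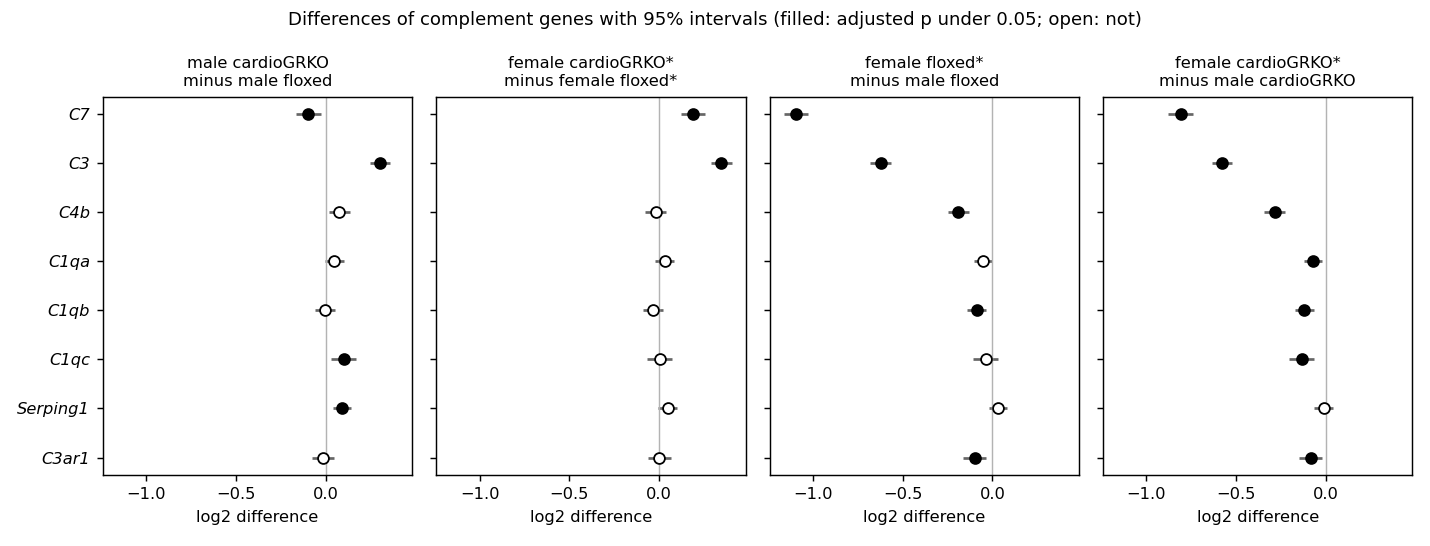
Log2 differences (horizontal axes) of the 8 genes in 4 comparisons, with limma's 95% intervals as bars, filled points for an adjusted p under 0.05, open points for the others and asterisks for groups given as labelled. C3 lies right of 0 in both genotype comparisons, at 0.30 and 0.35, and C7, C3 and C4b lie left of 0 in both sex comparisons.

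Counted over the 8 members, 3 rose and 1 fell in male cardioGRKO hearts, where 27.4% of all genes tested were called, 12.8% higher and 14.6% lower. In the groups labelled female 2 rose and 0 fell, against 29.3% of all genes (15.2% higher). The median difference of the members was 0.06 in males and 0.02 in the groups labelled female, against -0.002 and -0.0004 for all genes. The count of 2 of 8 in the groups labelled female is near the background.

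Between the sexes, 5 members were lower and 0 higher in hearts labelled female floxed, where 44.2% of genes were called (22.7% lower). In hearts labelled female cardioGRKO 7 were lower and 0 higher, where 24.2% of genes were called (12.4% lower). The count of 7 was 5 to 7 when 1 library was left out, and 6 after quantile normalization. C1qa and C3ar1, at adjusted p = 0.045 and 0.049 (limma), lost their call in 9 and 13 of 22 alternatives. The members' median was -0.09 between the floxed and -0.13 between the cardioGRKO groups, against 0.003 and 0.001 for all genes. The difference between the male and female genotype differences was called for 1 member, C7, which was lower, against 31.3% of genes (14.3% higher and 17% lower). Quantile normalization gave 4 lower and 1 higher, Serping1, between the floxed groups. Without the 2 libraries rich in Krt12 the count between the floxed groups was 3, C7, C3 and C4b, since C1qb and C3ar1 were lost. Without male cardioGRKO 3 the count in males was 2, C3 and Serping1. When 1 library was left out, the count between the groups labelled female was 2 to 3. The members' count between the groups labelled female stayed at 2 without the 2 libraries.

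**Figure D3:**
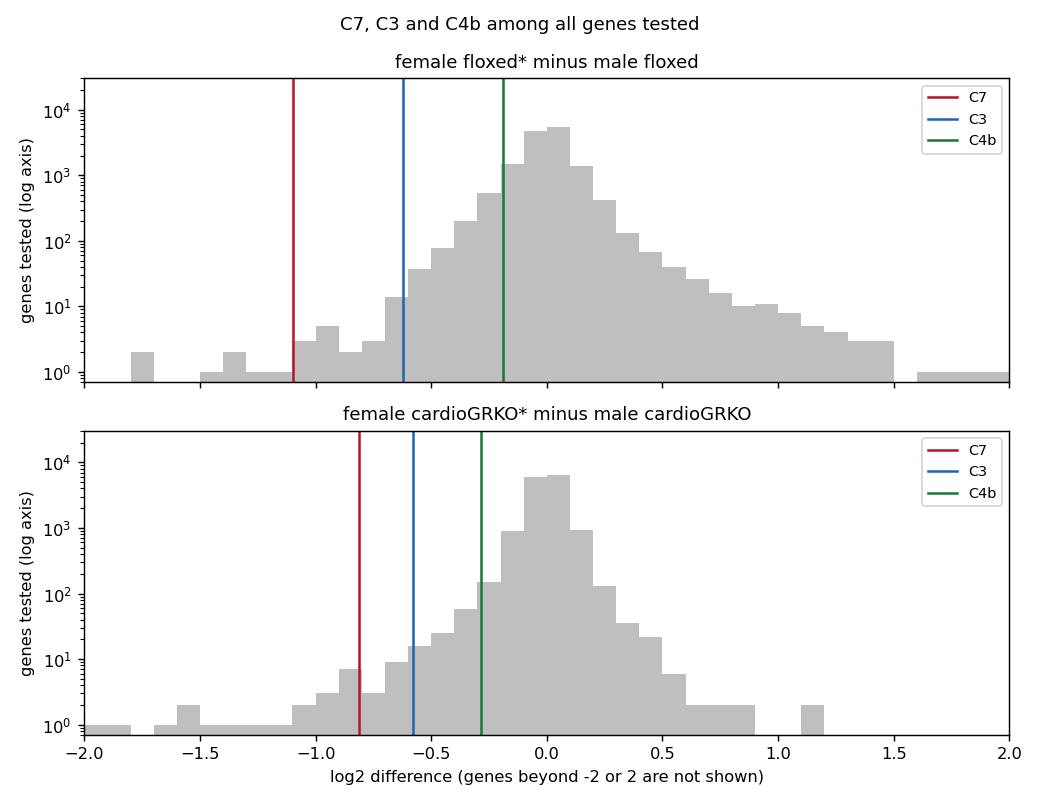
Distribution of the log2 difference between females and males (horizontal axis, bins of 0.1) over the 14721 genes tested, counted on a log axis, for the floxed groups above and the cardioGRKO groups below, with vertical lines for C7, C3 and C4b and asterisks for groups given as labelled. C7 and C3 lie in the sparse left tail in both panels, at -1.10 and -0.62 and at -0.81 and -0.58, and 12 and 3 genes beyond the axis are not shown.

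Stromal markers were read beside C3, C7 and C4b, and B cell markers beside C3. The 12 fibroblast markers summed to 16.89 to 16.92 in male floxed and 17.05 to 17.07 in male cardioGRKO libraries, and to 17.11 to 17.15 and 17.09 to 17.10 in the groups labelled female floxed and female cardioGRKO. Between the floxed groups 11 of the 12 were higher and 1 lower in females, the opposite direction to C3, C7 and C4b, and between the cardioGRKO groups 5 were higher and 2 lower. With cardioGRKO they moved with C3 in males (8 higher, 0 lower) and mostly against it in the groups labelled female (2 higher, 6 lower). Of the 8 mesothelial markers, 5 were higher and 0 lower in males, and 0 higher and 6 lower in the groups labelled female. Their summed level was 10.36 to 10.41 in male floxed and 10.67 to 10.69 in male cardioGRKO libraries, and 10.62 to 10.77 and 10.30 to 10.32 in those labelled female floxed and female cardioGRKO. Between the sexes 6 mesothelial markers were higher and 0 lower between the floxed groups, and 0 higher and 5 lower, the direction of C3, C7 and C4b, between the cardioGRKO groups. Of the 6 B cell markers, those called moved with C3 in both genotype comparisons. In males 6 were higher and 0 lower, and in the groups labelled female 4 were higher and 0 lower. The 6 markers summed to 9.03 to 9.09 in male floxed and 9.48 to 9.49 in male cardioGRKO libraries, which do not overlap, and to 9.21 to 9.25 and 9.25 to 9.31 in the groups labelled female. Between the sexes 4 of them were lower and 1 higher in hearts labelled female floxed, and 5 lower and 0 higher in hearts labelled female cardioGRKO. Their summed level went against C3 between the floxed groups, being higher in hearts labelled female floxed. Blk, the B cell marker with the highest level, differed there by 0.42, and by -0.28 between the cardioGRKO groups (limma, adjusted p = 5.2e-08 and 1.9e-05). In the groups labelled female the genotype difference of Blk was 0.008 (limma, adjusted p = 0.90). Of 7 hepatocyte markers only Ahsg passed the filter, and Cyp3a11 and Serpina1a were listed at 0 in all libraries. The part of these cell types in the differences of C3, C7 and C4b was not tested.

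The rest of the complement system was taken from a list of 48 other genes in the table, of which 33 passed the filter. The 15 under the filter included the lectins Mbl1 and Mbl2, the pore genes C6, C8a, C8b and C9, Hc, which encodes C5, and the protease Cfi. Of the partners C7 needs for a pore only C8g, a subunit of C8, passed the filter. It was not called in any comparison. In male cardioGRKO hearts 9 of the 33 rose and 4 fell (median 0.01), and in the groups labelled female 8 rose and 4 fell (median 0.02), beside 27.4% and 29.3% of all genes called. The count in the groups labelled female is not far from that background. Without the 2 libraries rich in Krt12 the count in the groups labelled female was 7 in place of 12.

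Of 4 other genes of the alternative and terminal steps tested, 2 rose and 0 fell in both genotype comparisons. Of all genes 27.4% were called in males and 29.3% in the groups labelled female. Cfd, which cleaves factor B and is also an adipocyte marker (adipsin), rose by 0.51 in males and by 0.59 in the groups labelled female, from 7.98 to 8.49 and from 7.83 to 8.42 (SE 0.031 each, adjusted p = 1.8e-09 and 5.6e-10, limma). Cfp, properdin, which stabilizes the alternative convertase, rose by 0.18 and 0.15 (adjusted p = 0.00074 and 0.0040). Cfb, the source of the convertase's protease, was not called in either (0.05 and -0.04). Of the 7 adipocyte markers tested, Cfd among them, 2 rose and 3 fell in males, and 6 rose and 0 fell in the groups labelled female. Their summed level was 10.54 to 10.58 in male floxed and 10.40 to 10.46 in male cardioGRKO libraries, and 9.90 to 10.25 and 10.98 to 11.04 in the groups labelled female floxed and female cardioGRKO. The sum was thus lower with cardioGRKO in males and higher with it in the groups labelled female, and its part in the Cfd difference was not tested.

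Of 12 regulators tested, 2 rose and 3 fell in males, and 3 rose and 1 fell in the groups labelled female. Of all genes 27.4% and 29.3% were called, and the count in the groups labelled female is near that share. Clu, clusterin, which binds the nascent pore, rose by 0.40 in males and by 0.11 in the groups labelled female (adjusted p = 3.7e-12 and 3.5e-05), the latter not called after quantile normalization (0.04, adjusted p = 0.068). Vtn, vitronectin, another inhibitor of the pore, fell by 0.42 and 0.09 (adjusted p = 4.4e-09 and 0.018). C1qbp, a protein that binds the globular heads of C1q, fell by 0.13 in males (adjusted p = 0.00056), with 0.02 in the groups labelled female (adjusted p = 0.67). Cd93, a receptor of endothelium and myeloid cells, fell by 0.19 in males and rose by 0.09 in the groups labelled female (adjusted p = 3.8e-07 and 0.00098). Without the 2 libraries rich in Krt12, which leaves 1 library labelled female floxed, the Cd93 rise was 0.06 and not called. Of the endothelial markers counted beside C7, most of those called moved with Cd93 in both comparisons. Their part in its difference was not tested.

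Among genes listed here under the start of the classical and lectin routes, collectins included, 3 of 10 rose and 1 fell in males. In the groups labelled female 2 of them rose and 2 fell. Of all genes 27.4% and 29.3% were called in these comparisons. C2, the protease of the C4b convertase, rose by 0.18 in males and fell by 0.14 in the groups labelled female (adjusted p = 5.6e-05 and 0.00072). The collectin Colec12 did likewise, at 0.14 and -0.13 (adjusted p = 0.00075 and 0.0021), and Colec11, a soluble collectin, fell by 0.22 in males (adjusted p = 1.4e-05), with 0.065 in the groups labelled female (adjusted p = 0.10). Among 7 receptors 2 rose and 0 fell in males, near the 27.4% of all genes called. One was Vsig4, a receptor of tissue macrophages for C3 fragments, at 0.35 (adjusted p = 1.9e-08), and it fell by 0.18 in the groups labelled female (adjusted p = 3.9e-05). The other was Cr2, the receptor for C3d on B cells, at 0.08 (adjusted p = 0.00020), with 0.03 in the groups labelled female (adjusted p = 0.10). Itgb2, the shared beta chain of the leukocyte receptors for iC3b, rose by 0.11 in the groups labelled female (adjusted p = 0.0052). Its call was lost, at 0.10, without the 2 libraries rich in Krt12, which leaves 1 library labelled female floxed. C5ar1 and C5ar2, the receptors of C5a, were not called in either genotype comparison.

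**Figure D4:**
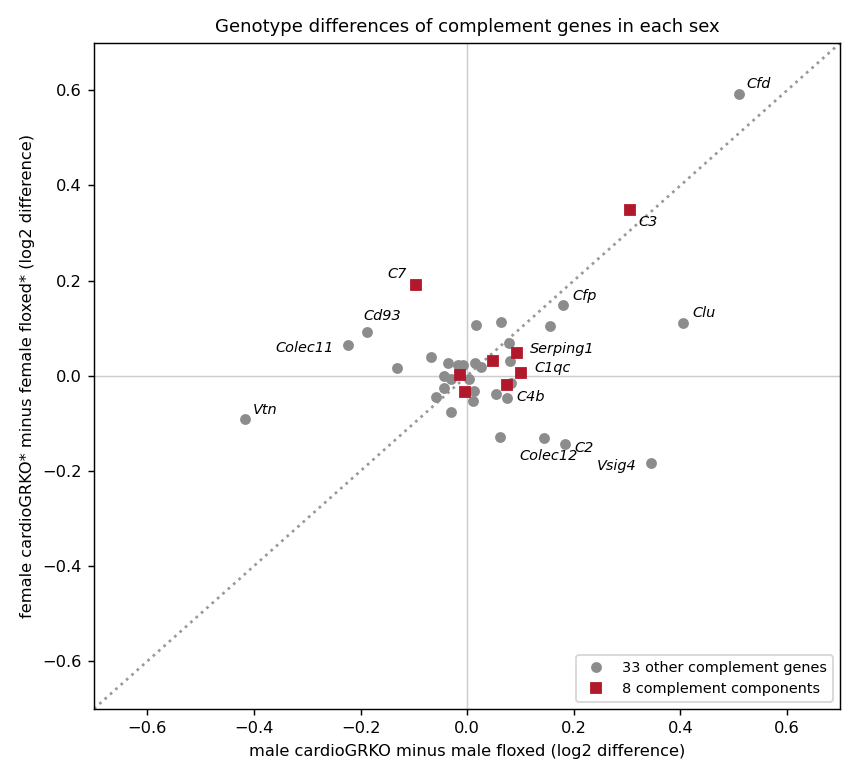
Log2 difference of cardioGRKO and floxed libraries in males (horizontal axis) and in the groups labelled female (vertical axis, asterisks) for the 8 components (squares) and the 33 other complement genes tested (circles), with a dotted line where both are equal. Cfd and C3 lie near that line at the upper right, at 0.51 and 0.59 and at 0.30 and 0.35, whereas Vsig4 lies at the lower right, higher in males and lower in the groups labelled female.

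Between the sexes, 10 of the 33 other genes were higher and 6 lower in hearts labelled female floxed, and 5 were higher and 6 lower in hearts labelled female cardioGRKO (medians 0.01 and 0.003), beside 44.2% and 24.2% of all genes called. The floxed count is near that background. Without the 2 libraries rich in Krt12 the floxed count was 9 in place of 16, and after quantile normalization 6 were higher and 6 lower (8 and 7 after median centring). Without female cardioGRKO 2 the cardioGRKO count was 7 in place of 11. Between the floxed groups, female minus male, Cd93 (-0.28), Vsig4 (0.33), Clu (0.17), Colec12 (0.22) and Vtn (-0.21) had the smallest p. Their adjusted p ran from 1.3e-09 to 1.1e-05 (limma). Between the cardioGRKO groups Colec11 (0.24), Clu (-0.12) and Vsig4 (-0.20) did (adjusted p = 1.1e-05 to 2.3e-05), and Vtn was at 0.12 (adjusted p = 0.0039). C2 was higher by 0.12 in hearts labelled female floxed (adjusted p = 0.0020) and lower in hearts labelled female cardioGRKO (-0.21, adjusted p = 2.4e-05). Cfp was higher in females in both genotypes, by 0.19 and 0.15 (adjusted p = 0.00036 and 0.0037), and Cfd lower in hearts labelled female floxed by -0.16 (adjusted p = 0.00054). Fcna, ficolin A of macrophages, and the receptor Cr2 were lower in hearts labelled female cardioGRKO, by -0.12 and -0.07 (adjusted p = 0.013 and 0.0012). The Fcna call was lost without male cardioGRKO 3 or female cardioGRKO 1 or 2 (adjusted p = 0.056 to 0.061).

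Patterns over the 12 libraries were compared by Pearson's r, which takes in differences between the 4 groups as well as those within them. C7 ran closest to the Y-linked Ddx3y (r = 0.991) and Uty (0.990) and to Hspb7 (0.988). C3 ran closest to Synpo2l (0.995), Cntn2 (0.993) and the B cell marker Cd22 (0.986), and C4b to Ptgfr (0.981), Tmx4 (0.973) and Ppp1r1b (0.971). For C1qa the closest were Col28a1 (0.930), Hoxd4 (0.927) and Pou2af1 (0.921), for C1qb Asb2 (0.955), Man2a2 (0.952) and Tmem150cos (0.949), and for C1qc Kcnh2 (0.916), Sync (0.915) and Tlr6 (0.912). For Serping1 they were Rhbdd2 (0.929), Akr1a1 (0.908) and P2rx5 (0.896), and for C3ar1 Cast (0.958), Snapin (0.951) and Ssr3 (0.939). In the deviations from the group means, r for these matches ranged from -0.250 (C7 with Hspb7) to 0.890 (C3ar1 with Cast). It was 0.818 for C7 with Ddx3y and 0.641 for C7 with Uty. The r that picked these matches includes the same deviations. Among the members themselves C7 and C4b had r = 0.919 and C7 and C3 0.887, yet in the deviations from the group means these were -0.222 and -0.633. The C1q chains reached only 0.579 to 0.657 with each other over the 12 libraries, where their ranges are narrow.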

How the data were processed

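RNA of 12 mouse hearts' libraries was measured by sequencing of total RNA, prepared with an Illumina TruSeq kit per the labels' protocols. The submitters' processing notes name Trim Galore, TopHat2, HTSeq, DESeq2 and the build mm9, with versions not given in the sources used here. The authors deposited 1 table of log2 values, named as DESeq2-normalized HTSeq counts. Depth is unknown, and 0 columns were left unused. Genes with at least log2 of 10 in at least 3 libraries were tested (14721 of 24918). In R 4.3.3, limma 3.58.1 fitted 1 mean for each of the 4 groups to all libraries together, leaving 8 residual degrees of freedom, and moderated the variances along an intensity trend. All adjusted p are two-sided, by Benjamini-Hochberg over all genes tested, called under 0.05. Intervals are 95%.

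The members and lists were chosen with earlier results of these data known. One complement gene is not reported here and is left out of the list of other complement genes and its counts. Named besides the members are up to 8 called genes per comparison from the list of other complement genes, by smallest p, the 3 genes most correlated with each member, and genes named singly after their values were seen (C4a, C5ar1, C5ar2, C8g, Cfb, Ahsg and those under the filter). Summed levels are sums of values on the linear scale, returned to log2. The fit was checked on simulated data. The 22 alternatives covered filters, scaling, moderation, library weights, the replicate number as a block, fits to single comparisons and left-out libraries. Strand use in counting is not given in the sources used here, so antisense genes such as Tmem150cos cannot be told apart from overlapping ones.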

Additional observations from a re-analysis of the deposited data

Results flagged for a closer look

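The male and female genotype differences were told apart by the test of their difference for 9 of the complement genes named, with the female genotype as labelled. Over all complement genes tested, the difference was called for 1 of 8 members, under the 31.3% of all genes called. It was called for 11 of the 33 others, near that share, and those named among the others have the smallest p. For C7 the male minus the female difference was -0.29 (-0.10 in males, 0.19 in the groups labelled female, limma, adjusted p = 0.00011). Among the other complement genes it was 0.53 for Vsig4, 0.33 for C2, 0.28 for Colec12 and 0.29 for Clu (limma, adjusted p from 6.3e-09 to 3.9e-05). It was -0.325 for Vtn, -0.29 for Colec11 and -0.28 for Cd93 (adjusted p from 1.9e-07 to 3.5e-05). For C1qbp it was -0.15 (adjusted p = 0.0034), and -0.09, not called, without the 2 libraries rich in Krt12. Vsig4, C2 and Colec12 rose in males and fell in the groups labelled female, and Cd93 did the reverse. Clu rose and Vtn fell in both, each by more in males. Most of the called endothelial markers moved with C7 and Cd93, as given above, and their part was not tested. Nr3c1 stood at 10.74 and 10.88 in the groups labelled female floxed and female cardioGRKO, near male cardioGRKO (10.85) and below male floxed (11.41), so neither group labelled female had the Nr3c1 level of male floxed hearts.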

How the results depend on the processing

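Of 872 recomputed member values, 808 kept direction and side of the threshold, 34 lost and 12 gained a call, and 18 changed sign, all of them uncalled before and after. Leaving out a library outside a comparison cannot change that comparison's difference, so the direction of part of the 808 was fixed in advance. With the 2 libraries labelled female floxed that are rich in Krt12 left out, 2734 genes in place of 4309 were called in the groups labelled female, 7 other complement genes in place of 12 there, 9 in place of 16 between the floxed groups and 7 in place of 11 for the interaction, and 3 members in place of 5 between the floxed groups. This leaves 1 library in that group, assumed to vary like the others. For the difference of the genotype differences, 2 members in place of 1 were called by moderation without the trend and with library weights, C4b being added (adjusted p = 0.043 and 0.049). Quantile normalization and median centring both turned the other complement genes called there from 6 higher and 5 lower to 4 higher and 6 lower. Over the settings that leave out 1 library, that count of members was 1 to 2, the count in males 2 to 4, and the count of other genes between the cardioGRKO groups 7 to 13.

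Sign changes in the interaction were C1qa (library weights -0.00205, and -0.00038 to 0.0385 leaving out 1 library), C3 (0.00902 without the 2 libraries) and C3ar1 (-0.0459 to 0.0107 leaving out 1 library). In males C1qb became 0.013 by quantile normalization and ranged from -0.0084 to 0.0063 leaving out 1 library. In the groups labelled female C1qc and C3ar1 became -0.034 and -0.0084 without the 2 libraries, and ranged from -0.0182 to 0.0278 and from -0.0242 to 0.0324 leaving out 1. By sex C1qc became 0.0011 in the floxed groups without the 2 libraries, and Serping1 0.0036 in the cardioGRKO groups by quantile normalization, with -0.0281 to 0.0076 leaving out 1. The cause of these changes was not tested.

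The replicate numbers are not known to pair the libraries: correlations of same-numbered deviations from group means ranged from -0.110 to 0.148 over 12 pairs, and 10 of 24 comparisons were highest with the own number. With the replicate number as a block, 3 members in place of 4 were called in males (C7 at adjusted p = 0.066), 2 in the groups labelled female, 1 for the interaction, 5 between the floxed and 5 in place of 7 between the cardioGRKO groups. With unknown depth, precision is limited to the spread of 3 libraries per group.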
